A study of Saccharomyces cerevisiae with 95 samples.

Results

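The genes described here encode the small nuclear RNAs (snRNAs) of the spliceosome and the small nucleolar RNAs (snoRNAs) that RNA polymerase II transcribes in Saccharomyces cerevisiae. They were taken from the R64 (sacCer3) annotation as every gene named SNR followed by digits, plus LSR1, which gave 82 genes. SNR6 and SNR52 were left out because RNA polymerase III transcribes them, and 8 snoRNA genes (SNR18, SNR24, SNR38, SNR39, SNR44, SNR54, SNR59 and SNR191) were left out because they lie in the introns of EFB1, ASC1, TEF4, RPL7A, RPS22B, IMD4, RPL7B and NOG2. This left 72 of 6431 nuclear genes: 5 snRNA entries (LSR1 for U2, SNR14 for U4, SNR19 for U1, and SNR7-L and SNR7-S for the long and short forms of U5, which share 1 start), 27 box H/ACA snoRNA genes and 40 box C/D snoRNA genes. Of these, 17 lie in 5 arrays of neighbouring genes (SNR67-SNR53, SNR190-SNR128, SNR57-SNR55-SNR61, SNR78-SNR77-SNR76-SNR75-SNR74-SNR73-SNR72 and SNR41-SNR70-SNR51).

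The data are competition ChIP-seq of 5 proteins of the RNA polymerase II initiation machinery, namely TFIIA, TFIIB, TFIIE, TFIIF and the TATA-binding protein TBP. Each factor was followed in its own diploid W303 strain with 2 tagged copies of the same protein, an HA-tagged competitor under the galactose-inducible GAL1 promoter and a Myc-tagged isoform under its own promoter. For TFIIA, TFIIE and TFIIF the tag was on a single subunit (Toa1, Tfa1 and Tfg2), and the partner subunit was also placed under GAL1 without a tag. Cells grown in raffinose received galactose to 2%, and HA and Myc ChIP were made from the same culture at 8 times: 10 min, then 20, 25 and 30 min, then 40 and 60 min, and last 90 and 120 min. For TFIIB a Myc library from before galactose (0 min) was analysed as well. There is 1 library for each factor, tag and time point (81 libraries analysed of 95 samples, with 2740185 to 19483568 counts in the sites of a library), so that every p-value below measures scatter around a trend over time within a single time course and not the spread between cultures. The HA/Myc question is the one the method was built for: how soon the induced copy replaces the resident copy at a site. The paper answers it with a turnover model that takes in the rise of the competitor protein on Western blots. The slopes below use no protein levels, so they are not residence times. The paper found that the competitor protein built up over the time course, and its amount at early times was not taken into account here.

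TBP binds the TATA element or a related sequence of a core promoter and bends it. TFIIA stabilises TBP on DNA, TFIIB links TBP to RNA polymerase II, TFIIF arrives with the polymerase, and TFIIE comes late and brings in TFIIH. Among the products, U1, U2, U4 and U5 take part in the splicing of pre-mRNA, box C/D snoRNAs guide 2′-O-methylation of ribosomal RNA, box H/ACA snoRNAs guide the conversion of uridine to pseudouridine, and U3 (SNR17A and SNR17B) and snR30 are needed for cleavage of the ribosomal RNA precursor. Many yeast snoRNAs are made as longer precursors that are trimmed at the 5′ end by Rnt1 and exonucleases, while snRNAs, U3 and some others keep the cap of the start of transcription. The annotated start of a trimmed snoRNA is therefore the end of the mature RNA and not the place where transcription begins.

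The upstream sequences below show where the TATA element lies relative to the annotated start, which differs between these kinds of genes. They were read from R64 on the strand of the gene, 5′ to 3′, and capitals mark matches to the TATA element, the Tbf1 core and the Reb1 core in the first of them (SNR19 at chrXIV:230673-230922, minus strand, positions -250 to -1 relative to the start). SNR19 encodes U1. Tbf1 and Reb1 are DNA-binding proteins that act at many yeast promoters, Tbf1 being known for snoRNA genes.
SNR19: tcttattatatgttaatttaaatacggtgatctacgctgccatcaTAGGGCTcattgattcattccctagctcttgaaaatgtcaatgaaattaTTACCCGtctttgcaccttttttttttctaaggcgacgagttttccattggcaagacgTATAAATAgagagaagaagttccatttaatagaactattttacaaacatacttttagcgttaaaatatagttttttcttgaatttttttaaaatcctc

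The next stretches run from 120 bp to 1 bp before the start, with the TATA element in capitals. They belong to the other snRNA genes (LSR1, chrII:681863-681982, minus; SNR7-L, chrVII:939673-939792, minus; SNR14, chrV:167587-167706, minus), to both U3 genes (SNR17A, chrXV:779987-780106, plus; SNR17B, chrXVI:281518-281637, minus) and to the H/ACA genes SNR37 (chrX:228480-228599, minus), SNR30 (chrXII:198664-198783, plus), SNR8 (chrXV:832212-832331, plus) and SNR49 (chrXIV:716000-716119, plus), whose factor levels are described further on.
LSR1: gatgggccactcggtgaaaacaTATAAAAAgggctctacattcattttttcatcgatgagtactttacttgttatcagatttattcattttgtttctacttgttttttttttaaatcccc
SNR7-L: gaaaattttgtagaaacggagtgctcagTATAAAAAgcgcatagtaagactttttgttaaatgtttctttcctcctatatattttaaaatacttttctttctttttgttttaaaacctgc
SNR14: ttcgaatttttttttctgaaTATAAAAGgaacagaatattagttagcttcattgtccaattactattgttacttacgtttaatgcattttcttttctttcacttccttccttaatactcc
SNR17A: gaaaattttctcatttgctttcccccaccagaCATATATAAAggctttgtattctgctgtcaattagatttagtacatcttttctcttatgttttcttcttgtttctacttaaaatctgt
SNR17B: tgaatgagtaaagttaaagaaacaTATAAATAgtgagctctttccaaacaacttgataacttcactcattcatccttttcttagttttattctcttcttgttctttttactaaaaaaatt
SNR37: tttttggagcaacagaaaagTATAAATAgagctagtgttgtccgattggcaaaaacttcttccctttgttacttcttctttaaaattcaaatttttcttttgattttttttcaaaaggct
SNR30: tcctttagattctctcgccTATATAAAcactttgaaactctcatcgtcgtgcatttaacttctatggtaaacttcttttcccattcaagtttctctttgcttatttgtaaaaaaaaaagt
SNR8: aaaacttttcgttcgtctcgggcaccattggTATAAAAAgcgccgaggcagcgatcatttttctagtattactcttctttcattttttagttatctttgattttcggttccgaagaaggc
SNR49: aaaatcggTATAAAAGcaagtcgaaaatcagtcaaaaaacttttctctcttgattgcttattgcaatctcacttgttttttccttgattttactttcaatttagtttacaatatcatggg

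Box C/D genes with the element far upstream are shown by 4 examples, each from 250 bp to 171 bp before the start with the TATA element in capitals (SNR56, chrII:87940-88019, plus; SNR40, chrXIV:88960-89039, plus; SNR62, chrXV:410035-410114, minus; SNR190, chrX:140121-140200, minus).
SNR56: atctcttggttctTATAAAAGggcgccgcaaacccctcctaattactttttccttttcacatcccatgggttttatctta
SNR40: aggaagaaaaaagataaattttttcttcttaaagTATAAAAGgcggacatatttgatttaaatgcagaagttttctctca
SNR62: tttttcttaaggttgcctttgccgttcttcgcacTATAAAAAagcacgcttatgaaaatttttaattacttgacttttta
SNR190: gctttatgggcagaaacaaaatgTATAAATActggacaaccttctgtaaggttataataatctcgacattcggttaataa

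A TATA element lay within 250 bp upstream to 50 bp downstream of the start at 52 of the 71 distinct starts (73.2%), against 18.8% of 138 ribosomal protein gene promoters and 37.7% of 6001 protein-coding promoters with windows of the same length. The letters searched, on both strands and with overlapping matches kept, were TATAAAAA, TATAAAAG, TATAAATA, TATAAATG, TATATAAA, TATATAAG, TATATATA and TATATATG. By class, the share was 22 of 27 for H/ACA genes and 26 of 40 for C/D genes, and all 4 snRNA starts had a match. The first TATA element began 98 bp before the start of LSR1 and of SNR19, 100 bp before SNR14 and 92 bp before SNR7-L, so that the snRNA genes have it at nearly the same place. A TATA match between 110 and 70 bp upstream was present at 4 of 4 snRNA starts, 14 of 27 H/ACA starts and 5 of the 28 C/D genes that stand alone or first in an array, and at 9.98% of protein-coding promoters. Those C/D genes included SNR4, SNR13, SNR17A and SNR17B. Between 250 and 210 bp upstream the order was the other way round: 10 of the 28 C/D genes (SNR40, SNR41, SNR56, SNR60, SNR62, SNR63, SNR64, SNR71, SNR78 and SNR190) and 1 of 27 H/ACA genes (SNR86) had a match, against 6.45% of protein-coding promoters. Both narrow windows were chosen after the positions had been seen, and protein-coding starts are start codons, whereas these starts are the 5′ ends of mature RNAs.

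The Tbf1 core (AACCCTA or AGCCCTA, both strands) was found at 16 of 71 starts (22.5%), against 4.35% of ribosomal protein gene promoters and 3.88% of protein-coding promoters. It was more frequent in H/ACA genes (37.0%) than in C/D genes (12.5%). The Reb1 core (TTACCCG, both strands) was found at 9 starts (12.7%), against 4.35% and 7.08%, and the Rap1 core (CACCCA, both strands), a motif known from ribosomal protein genes, at 6 starts (8.45%), against 14.5% and 7.87%. A run of 8 A or 8 T was present at 38 starts (53.5%), against 27.5% and 32.1%. These matches describe letters in a window and no binding was measured for Tbf1, Reb1 or Rap1.

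In each factor's table of sites, the site with its midpoint nearest to a start was taken from 500 bp upstream to 200 bp downstream. A site was found for 64 genes (55 distinct sites) of 4385 sites in TBP, 60 (53) of 3685 in TFIIA, 59 (54) of 4033 in TFIIB, 58 (52) of 4473 in TFIIE and 59 (55) of 3656 in TFIIF. All 5 factors had a site at 46 genes, 4 factors at 11, 3 factors at 5, 2 factors at 1 and a single factor at 9. The single-factor genes were SNR51, SNR61, SNR66, SNR73, SNR74, SNR75, SNR76 and SNR80, with TBP only, and SNR72, with TFIIA only. Of these 9, 7 lie behind another gene of an array. SNR73, SNR74, SNR75 and SNR76 were given the same TBP site of 2060 bp. SNR51 shared its TBP site with SNR70 and SNR41, and SNR61 with SNR55. No gene lacked a site in every factor, and the 8 genes without a TBP site (SNR17A and LSR1 among them) were each covered by a wide TBP site whose midpoint fell outside the window. The same held for the starts of 4 of 12 genes without a TFIIA site, 2 of 13 in TFIIB, 4 of 14 in TFIIE and 1 of 13 in TFIIF. Among them were SNR14 in TFIIE and SNR37 in TFIIB, with midpoints 211 and 209 bp downstream of the start. A missing site is therefore not always an absence of the factor. Sites of these genes were wide, with medians of 827 bp in TBP, 906 bp in TFIIA, 527 bp in TFIIB, 907.5 bp in TFIIE and 529 bp in TFIIF, against 282, 403, 359, 436 and 297 bp at all other sites.

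The place of the sites differed by class. TFIIB sites of C/D genes had their midpoint at a median of -185 bp from the start, those of H/ACA genes at -67 bp and those of snRNA genes at -26 bp. In TFIIF the medians were -198, -88 and -0.5 bp, and in TFIIE -171.5, -57.5 and 11 bp, in the same order of classes. The C/D genes outside arrays gave -170 bp in TFIIB and -166.5 bp in TFIIF. TBP sites lay closer to the start, at -9 bp for C/D, 39.5 bp for H/ACA and 26 bp for snRNA genes. C/D genes, with more TATA matches 250 to 210 bp upstream, also had TFIIB and TFIIF sites farther upstream than H/ACA and snRNA genes. Matches 110 to 70 bp upstream occurred in both H/ACA and snRNA genes and do not put these classes in order. This describes medians without a test.

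**Figure D1:**
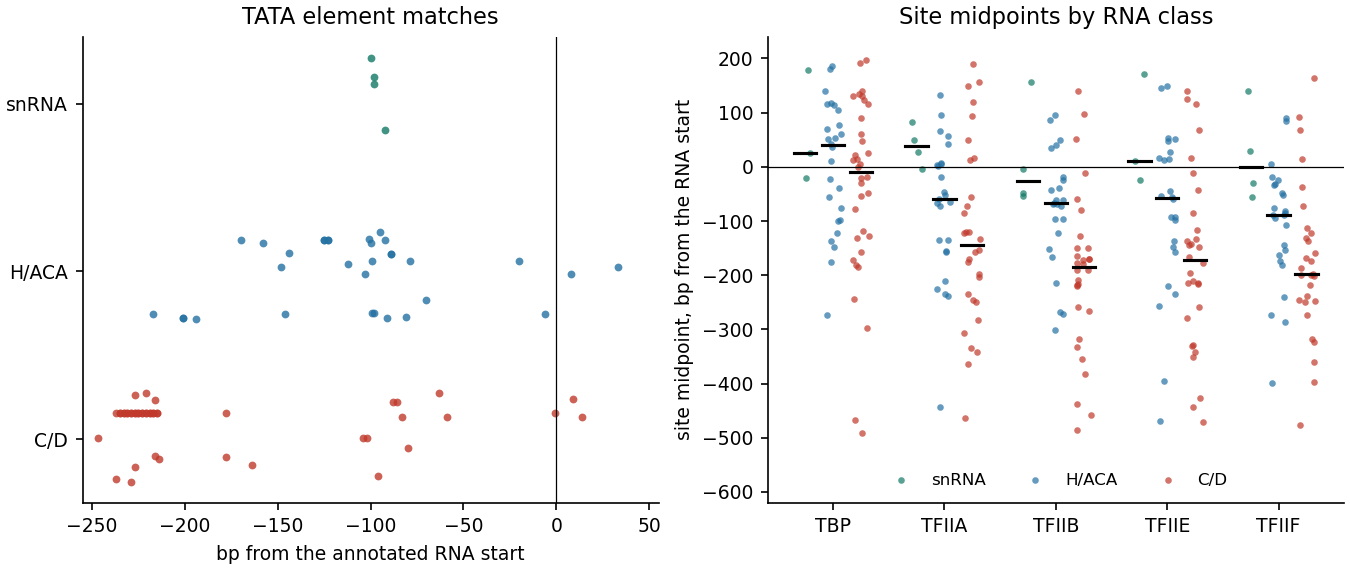
Left, every TATA match from 250 bp upstream to 50 bp downstream of the annotated start (x axis, bp) by class, for genes alone or first in an array. Genes are shifted up or down within a class to separate points. Later genes of arrays are left out on the left but kept on the right. The row of close points in C/D is the run of 23 overlapping matches of SNR63. Right, midpoint of each gene's site relative to the start (y axis, bp) for the 5 factors, with bars at the medians: TFIIB and TFIIF sites of C/D genes (-185 and -198 bp) lie farther upstream than those of H/ACA genes (-67 and -88 bp).

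Some sites also hold other genes. A tRNA gene, which also binds TBP through RNA polymerase III factors, overlapped the sites of 5 of these genes in TBP, 4 in TFIIA, 1 in TFIIB, 2 in TFIIE and 1 in TFIIF, and SNR33 shared its site with the tRNA gene SUF16 in all 5. The start nearest to the midpoint belonged to another gene in 1, 4, 7, 5 and 10 cases, such as RPL33A beside SNR17B in TFIIA and TFIIE, and 15, 14, 10, 12 and 8 genes shared a site with another of these genes. Windows of 50 bases that occur more than once in the genome made up 18.6% of the TBP site of SNR53 and at most 2.59% of the sites of SNR17A and SNR17B, so the U3 copies were largely told apart by sequence.

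The resident Myc copies were highly enriched at these genes. The level of a site is its count per bp relative to the median site of the same library, and levels below are means of the 8 Myc libraries at 10 to 120 min on a log2 scale. The median Myc level was 0.80 in TBP, 0.73 in TFIIA, 1.68 in TFIIB, 1.19 in TFIIE and 0.65 in TFIIF, which are the 88.1, 94.1, 94.1, 95.2 and 93.0 percentiles (medians over these sites) among all sites of each factor. Ribosomal protein genes, set beside them as another highly transcribed class, had medians of 0.68, 0.72, 1.84, 1.14 and 0.77. The level exceeded that of the median site at 51 of 55 TBP sites, 51 of 53 TFIIA sites, 54 of 54 TFIIB sites, 51 of 52 TFIIE sites and 54 of 55 TFIIF sites. It was at least 2-fold higher at 22, 16, 44, 31 and 10 of them, and 23, 35, 39, 40 and 35 were among the highest 10% of sites. Levels are set by the efficiency of each ChIP and are not compared between factors.

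**Figure D2:**
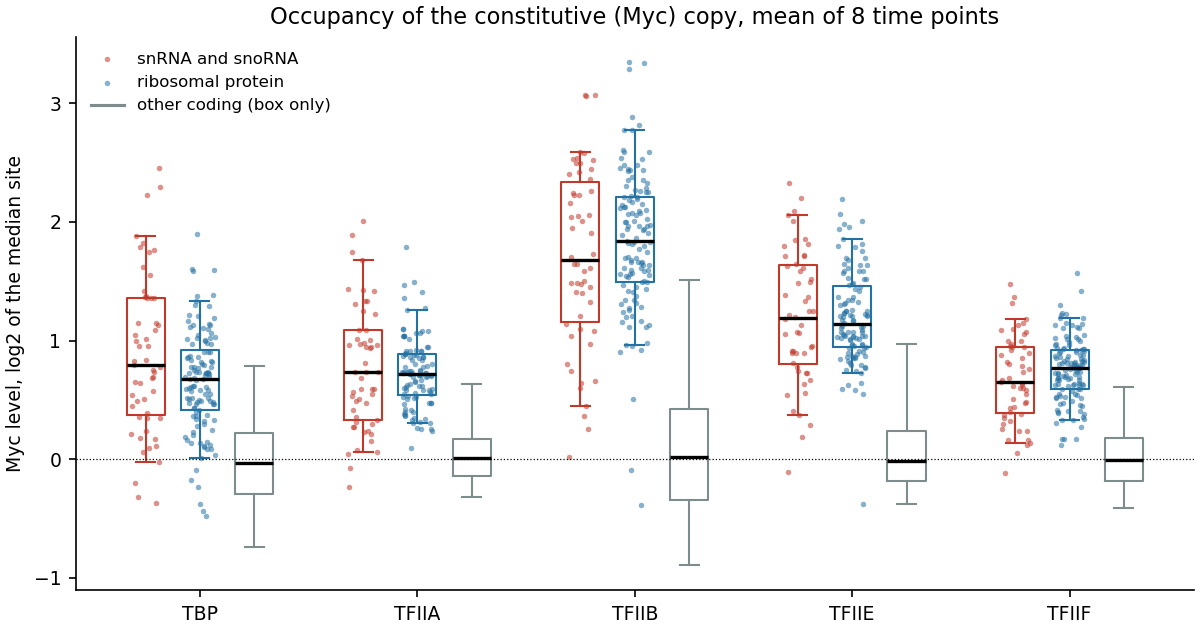
Mean Myc level over 10 to 120 min (y axis, log2 relative to the median site) of each snRNA and snoRNA site and each ribosomal protein gene site (points), and of other protein-coding sites (box only), for the 5 factors; boxes span the quartiles with the median, and whiskers the 5 to 95 percentiles. The medians of the snRNA and snoRNA sites (0.80, 0.73, 1.68, 1.19 and 0.65) lie close to those of ribosomal protein genes and above the other sites.

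The site taken for SNR17A, a U3 gene (chromosome XV, 780107-780596, plus strand), had the highest Myc level in 3 factors. Its level was 2.01 ± 0.18 in TFIIA, 3.07 ± 0.35 in TFIIB and 2.33 ± 0.49 in TFIIE (SD over 8 time points), the ranks 9, 21 and 5 among all sites. The TFIIB and TFIIF sites of SNR17A are 1131 and 1152 bp wide and have their midpoint nearer to the start of IRC13. Its TFIIA and TFIIE sites are wider still, 1836 and 1925 bp, the widest of these genes in both factors. The values of SNR17A in these 4 factors are therefore not those of the U3 promoter alone. SNR17B, the other U3 gene (chromosome XVI, 281056-281517, minus strand), reached 0.49 ± 0.15, 1.49 ± 0.76 and 1.06 ± 0.27 in the same factors. Relative to the median site these are 4.03-fold for SNR17A and 1.40-fold for SNR17B in TFIIA, and 8.42-fold and 2.80-fold in TFIIB. SNR30 (chromosome XII, 198784-199389, plus strand) equalled SNR17A in TFIIB, with 3.07 ± 0.33. In TFIIF the highest level was at SNR37, an H/ACA gene (chromosome X, 228094-228479, minus strand), with 1.47 ± 0.39 and rank 15, and in TBP at SNR33 (chromosome III, 142364-142546, minus strand), with 2.46 ± 0.17. The TBP site of SNR33 contains SUF16, and the median TBP level of tRNA sites was 2.39.

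The snRNA genes were all well above the median site. LSR1 (chromosome II, 680688-681862, minus strand), for U2, had Myc levels 2.38-fold over the median site in TFIIA, 5.29-fold in TFIIB, 3.28-fold in TFIIE and 2.19-fold in TFIIF. SNR19 (chromosome XIV, 230105-230672, minus strand), for U1, stood at 1.98-fold, 4.02-fold, 2.33-fold and 1.75-fold in the same factors. SNR14 (chromosome V, 167427-167586, minus strand), for U4, reached 3.45-fold in TBP, 1.51-fold in TFIIA, 3.87-fold in TFIIB and 1.70-fold in TFIIF. SNR7-L (chromosome VII, 939459-939672, minus strand), for U5, was the lowest of the snRNA genes in TFIIB at 2.31-fold, in TFIIE at 1.67-fold and in TFIIF at 1.29-fold. Per bp, U2 thus lay above U1, and U1 above U5, in TFIIB, TFIIE and TFIIF. The SDs over time points, 0.21 to 0.40 on the log2 scale, overlap between U2 and U1. The U5 sites are wider, with 1016, 1159 and 935 overlapping windows of 50 bases in these 3 factors, against 370, 496 and 349 at U1. In counts per site U5 therefore lies above U1.

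A few genes showed little occupancy. SNR58, a C/D gene (chromosome XV, 136088-136183, minus strand), had the lowest Myc level in TFIIA at -0.24 ± 0.09, in TFIIB at 0.02 ± 0.22 and in TFIIF at -0.12 ± 0.11. In TFIIB the SNR58 site gave 0.877 to 1.37 times the median site in the 8 HA libraries and 0.809 to 1.31 times in the 9 Myc libraries. The lowest TBP level was at SNR81 (-0.37 ± 0.28), an H/ACA gene, and the lowest TFIIE level at SNR50 (-0.11 ± 0.08), a C/D gene. Sites with a TATA match in the promoter window had the higher median Myc level in all 5 factors: 0.95 with and 0.56 without in TBP, 0.95 and 0.43 in TFIIA, 2.02 and 1.43 in TFIIB, 1.29 and 0.95 in TFIIE, and 0.80 and 0.55 in TFIIF (40 to 43 sites with and 10 to 12 without, leaving out later genes of arrays; no test). The ranges of the sites with and without a match overlapped in every factor.

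How the HA copy gained on the Myc copy was read from the slope of the log2 HA/Myc ratio against log2 time, relative to the typical site, in edgeR's quasi-likelihood fit with the time point as a block. A slope of 1 is a doubling of the ratio, relative to other sites, for each doubling of time. In TFIIF the ratio rose at 54 of 59 genes and fell at none, with a median slope of 0.63, where 19.4% of all 3656 sites rose and 17.1% fell, at a median of -0.02. Ribosomal protein gene sites behaved likewise, with 123 of 128 rising and a median of 0.55. The 5 genes whose TFIIF slope did not pass were SNR36, SNR58, SNR65, SNR84 and SNR161. With an offset that compares each site with sites of the same level (loess), 39 of the 59 rose (11.4% of all sites), none fell (13.4%) and the median slope was 0.30. SNR37 had the steepest TFIIF slope, 0.96 ± 0.14 (SE, adjusted p = 9.72e-05), and the site of SNR17A, which also reaches IRC13, the next, 0.95 ± 0.15 (adjusted p = 0.000153).

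At SNR37 the TFIIF-HA level was 1.06, 1.05, 1.18, 1.79, 4.2, 6.47, 5.70 and 6.15 times the median site from 10 to 120 min. The TFIIF-Myc level at SNR37 was 4.27, 3.00, 1.76, 2.70, 2.24, 3.46, 2.91 and 2.57 times. HA was near the median site up to 25 min and above Myc at every time from 40 min on. The site of SNR17A and IRC13 followed the same course, with HA at 0.956, 1.04, 1.42, 1.79, 3.96, 6.56, 6.84 and 7.34 times and Myc at 3.23, 2.55, 1.63, 2.38, 1.83, 3.91, 2.33 and 2.71 times. SNR19, for U1, reached lower HA levels, 0.574 times at 10 min and 3.85 times at 120 min, against Myc at 2.13 and 1.74 times, with a slope of 0.84 ± 0.13. LSR1 (0.85 ± 0.13), SNR14 (0.63 ± 0.10) and SNR7-L (0.45 ± 0.11) rose too, which made 4 of 4 snRNA sites. The SNR7-L slope turned to -0.03 with the loess offset. Over all 55 sites the median log2 HA/Myc was -0.95 at 10 min, -0.72 at 20 min, -0.14 at 25 min, -0.31 at 30 min, 0.74 at 40 min, 0.75 at 60 min, 1.03 at 90 min and 1.10 at 120 min. The TFIIF-HA libraries also differed over time in other ways. Mitochondrial sites took 61.8%, 25.3%, 60.4% and 23.5% of their counts at 10 to 30 min and 4.48% to 14.9% from 40 min on. The spread of levels between sites (SD of log2) was 0.649 at 10 min, 0.281 to 0.447 at 20 to 30 min and 0.585 to 0.742 later. In the TFIIF-Myc libraries mitochondrial sites took 10.8% to 41.4% of the counts, and the spread was 0.33 to 0.62. The part of these differences in the slopes was not tested beyond the loess values.

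**Figure D3:**
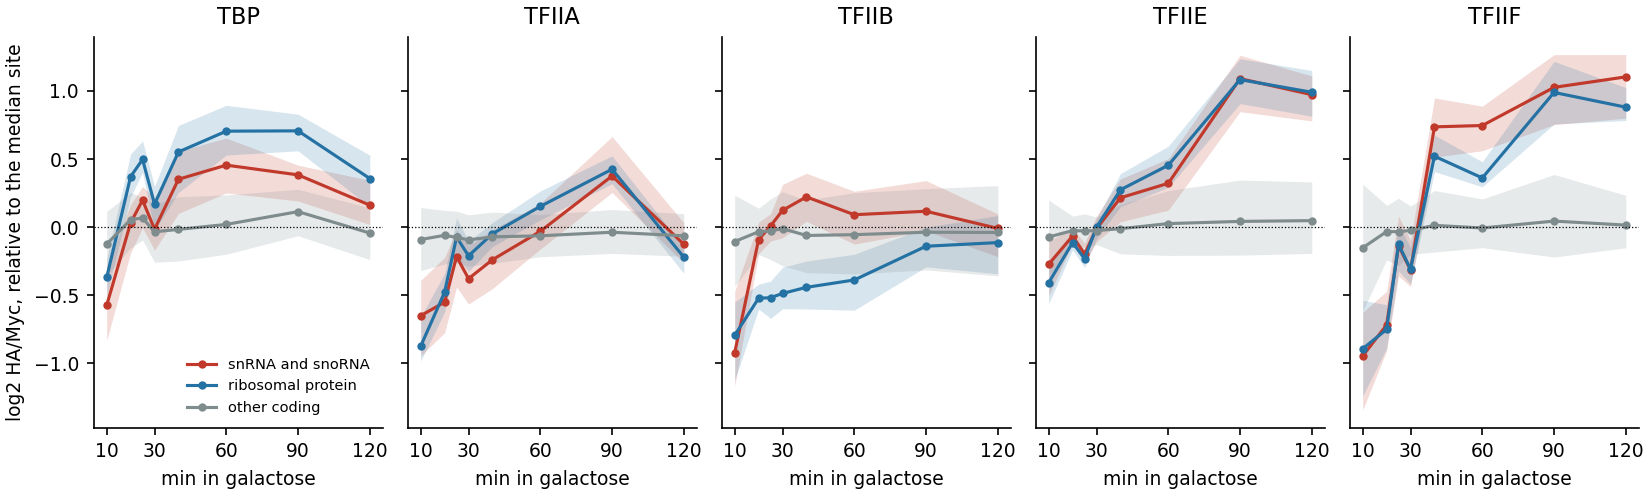
Median log2 HA/Myc ratio relative to the median site (y axis) against time in galactose (x axis, min) for snRNA and snoRNA sites, ribosomal protein gene sites and other protein-coding sites, with bands over the middle quartiles, for the 5 factors. In TFIIF the snRNA and snoRNA median is -0.95 at 10 min and 1.10 at 120 min, and in TFIIB it lies above that of ribosomal protein genes from 20 min on.

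In TFIIE the ratio rose at 50 of 58 genes and fell at none (median slope 0.37), where 29.4% of 4473 sites rose and 30.9% fell, and with the loess offset 10 rose (19.8% of all sites) and 12 fell (20.7%), at a median of -0.0033. SNR8, an H/ACA gene (chromosome XV, 832332-832521, plus strand), had the steepest slope, 0.71 ± 0.06 (adjusted p = 6.89e-06). Its TFIIE-HA level was 2.58, 5.11, 5.35, 6.07, 5.96, 6.65, 6.04 and 5.53 times the median site and its TFIIE-Myc level 5.64, 6.02, 6.34, 5.77, 4.28, 3.91, 2.1 and 2.07 times. The HA level at SNR8 changed little after 20 min, and the later change was in Myc. SNR56, a C/D gene (chromosome II, 88190-88277, plus strand), came next with 0.58 ± 0.06 (adjusted p = 1.65e-05). Slopes at 3 of 3 snRNA sites passed, 0.38 ± 0.07 for LSR1, 0.32 ± 0.07 for SNR19 and 0.27 ± 0.05 for SNR7-L, and the SNR7-L slope was -0.08 with the loess offset. Ribosomal protein gene sites rose at 107 of 112, with a median of 0.42.

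In TFIIA the ratio rose at 42 of 60 genes and fell at 1, with a median slope of 0.24, where 7.6% of 3685 sites rose and 9.44% fell. With the loess offset 26 rose (3.23% of all sites) and 1 fell (11%), at a median of 0.14. Ribosomal protein gene sites behaved likewise, with 63 of 107 rising and a median slope of 0.24. With the loess offset 15 of those 107 rose, at a median of 0.14. SNR56 rose by 0.40 ± 0.08 (adjusted p = 0.00961) and SNR49, an H/ACA gene (chromosome XIV, 716120-716284, plus strand), by 0.39 ± 0.07 (adjusted p = 0.00754, and 0.0655 without the 10 min libraries). At SNR56 TFIIA-HA was 1.69, 1.40, 1.86, 2.01, 2.35, 2.52, 3.65 and 2.48 times the median site, against 3.25, 2.78, 2.68, 2.84, 2.77, 2.43, 2.28 and 2.58 times for Myc. HA was below Myc until 40 min, above it at 60 and 90 min and again slightly below it at 120 min. The TFIIA count depended on the time points: 8 genes passed without the 10 min libraries, 17 without 90 min, 24 without 20 min and 28 without 60 min. It was 3 with linear time, and 3 when a background level was subtracted and limma replaced edgeR, while the median slope over the 53 sites was then 0.39, against 0.24 in edgeR.

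The single fall in TFIIA was at SNR72, a C/D gene at the end of the SNR78 array (chromosome XIII, 298554-298651, plus strand), with -0.24 ± 0.05 (adjusted p = 0.00812) and -0.26 with the loess offset. TFIIA-HA was 2.51, 2.09, 2.45, 2.24, 1.74, 1.83, 2.04 and 1.67 times the median site there, while TFIIA-Myc was 0.955, 0.876, 0.871, 0.885, 0.897, 0.932, 1.10 and 1.12 times. The HA signal at SNR72 was thus above the median site from the first time point and the Myc signal near it throughout. At tRNA sites the median TFIIA-HA level (log2) was 0.35 at 10 min too, against 0.01 for TFIIA-Myc, and whether either is occupancy or background was not tested. Its site (298532-298891) has its midpoint 157 bp downstream of the start, and no other factor had a site with its midpoint in the window.

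In TBP the ratio rose at 3 of 64 genes and fell at none, where 6.64% of 4385 sites rose and 1.25% fell. All 3 (SNR33, SNR46 and SNR53) have a tRNA gene in the site. SNR33 had a slope of 0.72 ± 0.14 (adjusted p = 0.00157), which was -0.03 with the loess offset, and SNR53, a C/D gene (chromosome V, 61699-61789, plus strand), had 0.53 ± 0.13 (adjusted p = 0.0102), which was -0.33 with it. TBP-HA at SNR33 was 1.21, 3.08, 3.23, 3.33, 4.93, 5.84, 8.17 and 6.43 times the median site, and TBP-Myc 6.06, 5.31, 5.26, 6.49, 5.18, 4.45, 5.46 and 5.96 times. The HA level came to that of Myc by 40 to 60 min while Myc stayed within 4.45 and 6.49 times. Over all 55 TBP sites the median log2 HA/Myc was -0.57 at 10 min, 0.20 at 25 min, 0.46 at 60 min and 0.16 at 120 min, against -0.37, 0.50, 0.70 and 0.36 at ribosomal protein gene sites. At the 45 sites with no tRNA gene, a single member and the member's start nearest, no TBP ratio passed, and over all 64 genes the direction turned with the loess offset, where 15 fell (2.81% of all sites), none rose (0.593%) and the median was -0.14, against 0.20 without it. Of the 431 sites in the highest 10% of TBP-Myc level, 258 were tRNA sites outside those of these genes. The median log2 HA/Myc of all 262 such tRNA sites was -2.34 at 10 min and -0.21 at 120 min. Their part in the loess values was not tested. Without the 10 min libraries the median TBP ratio slope over the 55 sites was 0.078. Leaving out the 120 min libraries gave 25 rising genes and leaving out the 10 min libraries gave 0.

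In TFIIB no ratio slope passed among 59 genes, where 0.669% of 4033 sites rose and 0.545% fell. The median slope was 0.19, edgeR gave 24 genes an unadjusted p under 0.05, all of them rising, and DESeq2 called 4. The median slope rested on the 10 min libraries: it was 0.036 without them (32 of 54 sites above the median of all sites) and 0.289 without those at 120 min, against 0.19 with all. The median log2 HA/Myc of these sites was -0.92 at 10 min, -0.09 at 20 min, 0.01 at 25 min, 0.12 at 30 min, 0.22 at 40 min, 0.09 at 60 min, 0.12 at 90 min and -0.01 at 120 min. At ribosomal protein gene sites the median was -0.79 at 10 min, -0.52 at 20 min, -0.49 at 30 min, -0.44 at 40 min and -0.11 at 120 min. At 30 min 37 of 54 snRNA and snoRNA sites had a ratio over that of the median site, against 7 of 121 ribosomal protein gene sites. At 40 min it was 43 of 54, against 8 of 121. Other protein-coding sites gave 49.0% and 44.1% at these 2 times. The counts were closer at 10 min, 1 of 54 against 2 of 121, and at 120 min, 25 of 54 against 43 of 121. The spread of levels between all sites (SD of log2) was 0.50 at 10 min and 0.75 to 0.96 later in the TFIIB-HA libraries and 0.89 to 1.16 in the TFIIB-Myc libraries, and the snRNA and snoRNA sites had a median Myc level (1.68) close to that of ribosomal protein genes (1.84). These counts rest on 1 HA and 1 Myc library per time point and were not tested. At SNR30 TFIIB-HA was 2.11, 6.17, 7.08, 8.92, 7.53, 10.1, 11.3 and 8.49 times the median site, and TFIIB-Myc 6.03, 6.88, 8.03, 8.12, 7.45, 9.87, 10.9 and 11.5 times. HA at SNR30 was farthest below Myc at 10 min, close to it from 20 to 90 min and below it again at 120 min.

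**Figure D4:**
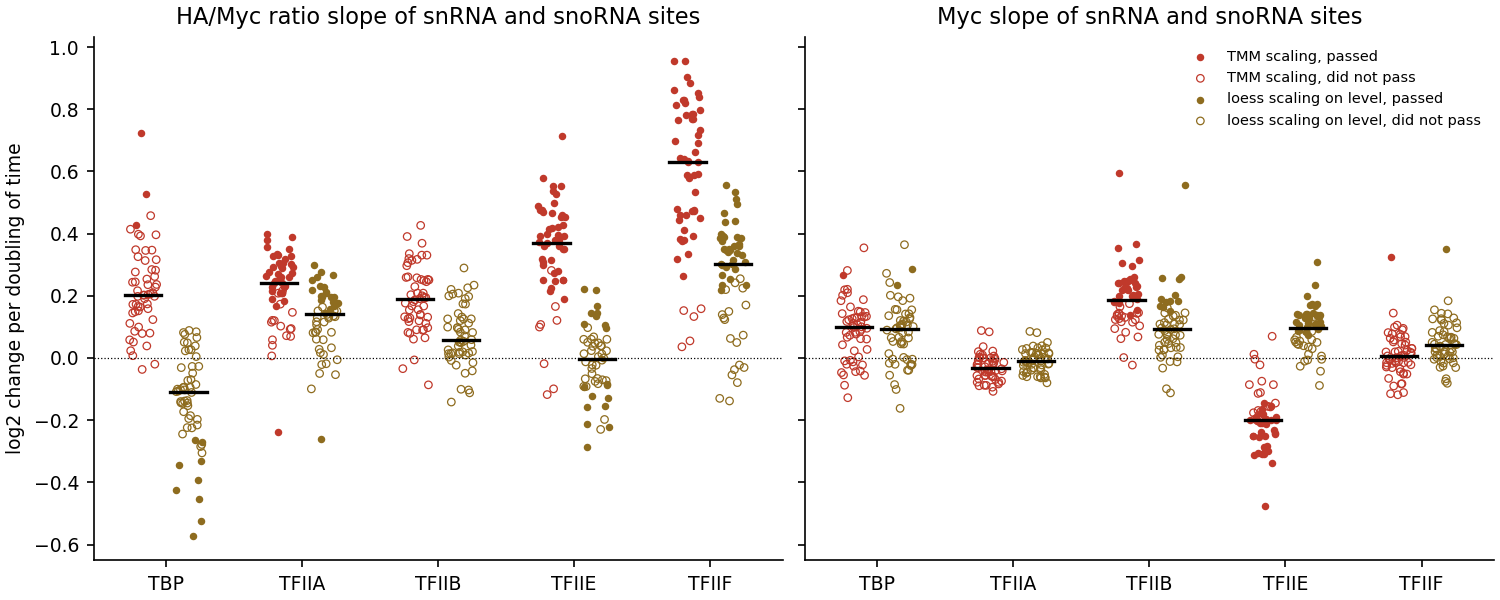
Slopes per doubling of time (y axis, log2) of the HA/Myc ratio (left) and of the Myc level (right), 1 point for each distinct site, with TMM scaling and with the loess offset; filled points have an adjusted p under 0.05 and bars are medians. With TMM the ratio passes at 50 of 55 sites in TFIIF, 44 of 52 in TFIIE, 38 of 53 in TFIIA (1 of them, SNR72, below 0), 3 of 55 in TBP and 0 of 54 in TFIIB, and the medians of the TBP ratio, the TFIIE ratio (0.37 with TMM, -0.0033 with loess) and TFIIE Myc change sign with the loess offset.

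The resident Myc copy was followed on its own over the same 8 time points. In TFIIB the Myc level relative to other sites rose at 34 of 59 genes and fell at none, where 10.8% of all sites rose and 9.37% fell, while with the loess offset 12 rose (7.14% of all sites) and none fell (8.88%), and 18 rose without the 120 min library. Ribosomal protein gene sites rose at 79 of 121. The median TFIIB-Myc level of the 54 sites was 2.12 at 120 min and 1.30 at 0 min, before galactose, against 2.08 and 1.77 at ribosomal protein genes. At 50 of 54 sites the level at 120 min exceeded that at 0 min, as it did at 102 of 121 ribosomal protein gene sites and 1639 of 3267 other protein-coding sites. The spread of TFIIB-Myc levels between all sites (SD of log2) was 0.886 at 0 min, 0.937 at 10 min, 1.155 at 60 min and 1.129 at 120 min, and its part in these rises was not tested beyond the loess values. The steepest slope was at SNR17B, 0.60 ± 0.07 (adjusted p = 7.56e-05, and 0.56 with the loess offset), followed by SNR40, a C/D gene (chromosome XIV, 89210-89306, plus strand), with 0.37 ± 0.07 (adjusted p = 0.00183). The slope at the site of SNR17A was 0.24 ± 0.07 (adjusted p = 0.0195, and 0.04 with the loess offset), which did not pass without the 20, the 90 or the 120 min library.

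At SNR40 TFIIB-HA was 1.39, 4.45, 5.45, 6.87, 6.17, 10.6, 13.3 and 11.5 times the median site from 10 to 120 min. TFIIB-Myc there was 2.70 times at 0 min and 4.41, 4.0, 4.71, 4.40, 4.41, 7.29, 8.67 and 10.2 times at the later times. HA exceeded Myc at SNR40 from 20 min on, and both were highest from 60 min on.

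The values of the U3 genes SNR17B and SNR17A over time are set side by side here; their difference was not tested, and the TFIIB site of SNR17A also reaches IRC13. TFIIB-Myc at SNR17B was 1.32 times the median site at 0 min, and 1.23, 1.79, 2.38, 2.81, 2.13, 5.01, 4.70 and 5.14 times from 10 to 120 min. TFIIB-HA there was 1.23, 2.24, 3.18, 4.24, 4.39, 7.61, 8.16 and 5.42 times over the same 8 times. Both copies were near the median site at 10 min and several-fold above it from 60 min on, and the HA/Myc slope of SNR17B was 0.10 ± 0.10 (adjusted p = 0.656). At SNR17A TFIIB-Myc was already at 6.60 times at 0 min, and was 6.75 times at 10 min and 11.1 times at 120 min. TFIIF-Myc at SNR17B also rose, by 0.32 ± 0.05 (adjusted p = 0.0101, and 0.35 with the loess offset), the only one of 59 genes in TFIIF, where 0.711% of sites rose and 0.0547% fell. The TFIIF-Myc slope did not pass without the 10 min library (adjusted p = 0.154). Its values were 1.07, 1.37, 1.30, 1.49, 1.49, 2.01, 2.49 and 1.96 times the median site. In TBP the Myc slope of SNR17B was 0.35 ± 0.11 (adjusted p = 0.121), with 0.998 times at 10 min, 3.21 times at 90 min and 1.83 times at 120 min, and in TFIIA it was 0.01 ± 0.04. The TFIIA and TFIIE sites assigned to SNR17B extend over the divergent start of RPL33A, whereas the TBP, TFIIB and TFIIF sites are 259 to 325 bp wide and lie by SNR17B.

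**Figure D5:**
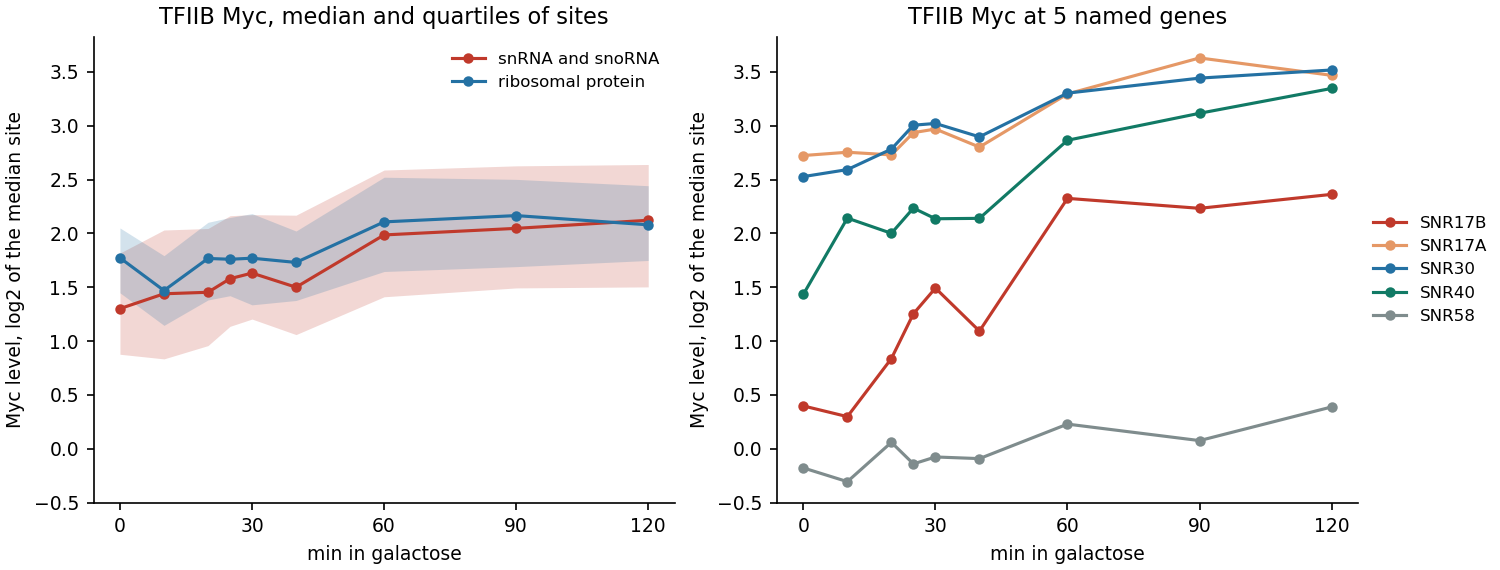
TFIIB-Myc level (y axis, log2 relative to the median site) before galactose (0 min) and up to 120 min after it (x axis): left, median and quartiles of snRNA and snoRNA sites and of ribosomal protein gene sites; right, 5 named genes. SNR17B stands at 5.14 times the median site at 120 min and 1.32 times at 0 min, SNR40 at 10.2 and 2.70 times and SNR17A at 11.1 and 6.60 times, while SNR58 stays near the median site.

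In TFIIE the Myc level fell at 40 of 58 genes and rose at none, where 29.4% of all sites fell and 30.9% rose, but the direction turned with the loess offset, under which 34 rose (18.8% of all sites) and none fell (17.5%). The count was 7 without the 120 min library, 15 without 90 min and 26 without 20 min. Ribosomal protein gene sites fell at 110 of 112 and rose at 1, and with the loess offset fell at 31 and rose at 2. The spread of TFIIE-Myc levels between all sites (SD of log2) was 0.66 at 10 min, 0.47 at 40 min and 0.31 at 120 min, and its part in the fall was not tested beyond the loess values. SNR8 fell by 0.47 ± 0.10 (adjusted p = 0.00290, and by 0.09 with the loess offset). SNR30 fell by 0.34 ± 0.10 (adjusted p = 0.0155), which did not pass without the 90 or the 120 min library. With the loess offset the SNR30 slope turned to a rise of 0.035. TFIIE-Myc at SNR30 was 3.99, 4.56, 5.14, 4.57, 3.46, 3.61, 1.89 and 2.08 times the median site, so that the lower values were those at 90 and 120 min.

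In TBP the Myc level rose at 1 of 64 genes, SNR69, a C/D gene (chromosome XI, 364776-364876, plus strand), and fell at none, where 0.502% of sites rose and 1.76% fell, and with the loess offset 2 rose (0.798% of sites) and none fell (1.76%). TBP-Myc at SNR69 was 0.876, 1.08, 1.04, 1.32, 1.31, 1.43, 1.78 and 1.68 times the median site (slope 0.27 ± 0.05, adjusted p = 0.0180), and the slope did not pass without the 10 min or without the 90 min library (adjusted p up to 0.104). In TFIIA no Myc slope of 60 genes passed in edgeR, where 0.217% of sites rose and 0.19% fell; 10 had an unadjusted p under 0.05, of which 2 rose, and DESeq2 called 1. SNR128 (U14, a C/D snoRNA also needed for processing of ribosomal RNA, chromosome X, 139566-139691, minus strand) shares its TFIIA site with SNR190, whose start lies nearer to the midpoint; the site had Myc between 2.79 and 3.74 times the median site and a slope of -0.04 ± 0.05.

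Across factors, 41 of the 46 genes with all 5 sites had an HA/Myc slope above 0 in every factor with TMM scaling. With the loess offset, the slope was below 0 at 52 of 64 genes in TBP and at 29 of 58 in TFIIE. Ribosomal protein gene sites had slopes above 0 with TMM at 114 of 120 in TBP, 107 of 107 in TFIIA and 120 of 121 in TFIIB. In TFIIE these were 111 of 112, and in TFIIF 126 of 128. Among all 72 genes, those without a site in a factor could not be called there. A called rise of the ratio with TMM was seen in 3 factors at 37 genes, in 2 at 15, in 1 at 8 and in none at 12. Genes that share a site are each counted. TFIIB gave no such call and TBP only 3, so the rest came from TFIIA, TFIIE and TFIIF. In these, 7.6%, 29.4% and 19.4% of all sites rose. Sites were not matched between factors here, so the share of all sites rising in several factors was not computed. Across genes, Spearman's rho between the Myc levels of pairs of factors ran between 0.54 (TBP and TFIIA, 51 genes) and 0.89 (TFIIB and TFIIF, 56 genes); these are descriptions across genes, which share libraries and site widths. Genes for snoRNP proteins and snoRNA processing, a list of 20 that includes NOP1, NOP58, CBF5, RNT1 and TBF1, had median Myc percentiles of 66.3 in TBP, 71.0 in TFIIA, 87.7 in TFIIB, 85.3 in TFIIE and 83.5 in TFIIF. Their HA/Myc ratio rose at 10 of 15 in TFIIF with none falling (19.4% and 17.1% of all sites), at 9 of 19 in TFIIE with 4 falling (29.4% and 30.9%), at 1 of 16 in TFIIA with 1 falling (7.6% and 9.44%), at 1 of 17 in TBP (6.64%) and at none of 17 in TFIIB (0.669%). In TFIIF, the slope was 0.92 for NRD1, which acts in termination of snoRNA transcription, 0.49 for SNU13, a core protein of C/D particles, and 0.34 for NOP1, the methyltransferase, while TBF1 had -0.20, which did not pass (adjusted p = 0.134).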

How the data were processed

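Sites and raw read counts were used as the authors deposited them: per the labels and the study's methods, reads were aligned to sacCer3 with Bowtie2 2.2.6, peaks were called with MACS2 2.1.0.20151222 on early Myc libraries against input, merged, and reads were counted in each site with bedtools. Inputs and the Myc 0 min libraries other than TFIIB were not analysed here. The members and lists were chosen with earlier results of these data known.

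Site levels are log2 counts per bp (with 0.5 added to counts) minus the library median over nuclear sites outside rDNA. Slopes came from edgeR 4.0.16 (R 4.3.3) quasi-likelihood tests on TMM-scaled counts, over all sites of a factor with a mean of at least 10 counts, with two-sided p-values adjusted by Benjamini-Hochberg over all of them and a threshold of 0.05. The ratio fit used the 16 HA and Myc libraries of a factor (time point block, tag, tag by log2 time; 6 residual degrees of freedom), and the Myc fit the 8 Myc libraries at 10 to 120 min. The fits were also run on simulated counts with known slopes. Those counts held none of the drift in spread or mitochondrial share of the real libraries, so they could not test its effect. Named with values were, per factor, the 2 largest called changes in each direction (mean of at least 50 counts, same sign without any 1 time point), the highest and lowest Myc level, the snRNA and U3 genes, SNR30 and SNR128; SNR46, SNR161 and other members were named as exceptions or examples after their values had been seen. Alternatives used limma 3.58.1 (background subtraction), DESeq2 1.42.0, other scalings (a loess offset on level, total count), linear time, filters, windows and leaving out each time point. Promoter sequences came from R64.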

Additional observations from a re-analysis of the deposited data

How the results depend on the processing

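The labels number no replicates, so the only pairing was that of the HA and Myc libraries of a time point, through the time point block of the ratio fit. Of 59 genes the TFIIF ratio passed at 53 to 56 when each time point was left out in turn (54 with all), and the other counts ran over 0 to 25 (TBP ratio, 3 with all), 8 to 54 (TFIIA ratio, 43), 0 to 1 (TFIIB ratio, 0), 46 to 55 (TFIIE ratio, 50), 0 to 3 (TBP Myc, 1), 0 to 0 (TFIIA Myc, 0), 18 to 39 (TFIIB Myc, 34), 7 to 54 (TFIIE Myc, 40) and 0 to 1 (TFIIF Myc, 1); the cause was not tested. With the loess offset the counts were 15, all falling (TBP ratio), 27 (TFIIA ratio), 22, of which 10 rose and 12 fell (TFIIE ratio), 2 (TBP Myc), 12 (TFIIB Myc) and 34, all rising (TFIIE Myc), an offset that by construction compares sites of equal level. Background subtraction with limma gave 1 (TBP ratio), 3 (TFIIA ratio), 27 (TFIIE ratio), 9 (TBP Myc) and 4 (TFIIE Myc). The DESeq2 Wald test gave 16 (TBP ratio), 4 (TFIIB ratio), 13 (TBP Myc) and 1 (TFIIA Myc), and DESeq2 size factors 2 (TBP Myc). Linear time gave 0 (TBP ratio), 3 (TFIIA ratio), 0 (TBP Myc) and 0 (TFIIF Myc), and total-count scaling 3 (TFIIB ratio) and 0 (TFIIF Myc). Without the time point block the TBP ratio count was 5, and with each site once, no tRNA gene and no nearer gene start it was 0. With total-count scaling the median ratio slope of all sites was -0.15 in TBP and 0.51 in TFIIF, against 0.0048 and -0.015 with TMM. The Myc level was also compared as the median of these sites minus the median of all other sites. Per bp this difference was 0.81 (TBP), 0.74 (TFIIA), 1.70 (TFIIB), 1.21 (TFIIE) and 0.66 (TFIIF). Counts per site in place of per bp, with the wider sites of these genes, gave 2.45, 2.03, 2.56, 2.32 and 1.49. The narrower window gave a difference of 0.95 in TFIIA.

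Named genes changed sign with the loess offset as follows. The TFIIE Myc slope was above 0 at LSR1 (0.11), SNR128 (0.11), SNR17A (0.14), SNR17B (0.17), SNR19 (0.10), SNR30 (0.035), SNR33 (0.15), SNR37 (0.17), SNR49 (0.20), SNR56 (0.051), SNR58 (0.075), SNR7-L (0.11) and SNR81 (0.067), and after background subtraction at SNR128 (0.028) and SNR33 (0.029). The TBP ratio slope was below 0 at SNR128 (-0.43), SNR30 (-0.34), SNR33 (-0.027), SNR40 (-0.52) and SNR53 (-0.33), the TFIIE ratio slope at SNR17A (-0.051), SNR17B (-0.091), SNR33 (-0.22), SNR40 (-0.073), SNR49 (-0.034) and SNR7-L (-0.083), and the TFIIF ratio slope at SNR7-L (-0.031). In the thinnest library, TFIIF-HA at 10 min, 0.391% of 2740185 counts lay in these sites and 61.8% in mitochondrial ones. With a single time course per factor, spread between cultures could not be measured.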
